A study of Mus musculus with 8 samples.

Results

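The genes described here are 34 immediate-early and dissociation stress genes, out of 27179 genes counted, in the thymic epithelium (TECs), whose cells form the niche where developing T cells are selected. They were taken by name from a list chosen with earlier results of these data known. It covers AP-1 subunits, EGR, KLF, NR4A and MYC regulators, feedback and RNA decay genes, a secreted protein, a small GTPase and inducible heat shock genes. All 34 were found in the count table. Nr4a3, an orphan nuclear receptor, did not reach 1 CPM, a count scaled to the size of its library, in 2 libraries and was left out of the tests, since it had at most 0.687 CPM in any library, so 33 of 34 were tested. The samples were TECs of C57BL/6 mice in 4 groups of bulk polyadenylated RNA libraries: Mcl1 knockout (KO) cortical cells (KO cTEC, 1 library), wild-type cortical cells (WT cTEC, 4 libraries), KO medullary cells (KO mTEC, 1 library) and wild-type medullary cells (WT mTEC, 2 libraries). The labels give no age, no treatment, no promoter or Cre line behind the knockout, and no account of how the cells were freed from the thymus. They say that pellets were snap frozen, and that RNA went through a low-input full-length cDNA kit and a tagmentation library kit. The series calls the libraries biological replicates without saying whether they came from separate mice or from pools, so p-values measure the spread between these libraries.

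Immediate-early genes are switched on within minutes of a growth factor, stress or mechanical signal without new protein synthesis, because kinase cascades act on factors already bound at their promoters: serum response factor and its partners at the CArG box, and CREB at the cAMP response element (CRE). FOS and JUN family proteins pair to form AP-1, while the phosphatases, RNA decay factors and SOCS proteins induced with them switch the response off again. Inducible heat shock genes answer to heat shock factor 1 at repeats of GAA and its complement. Enzymatic dissociation of solid tissue is known to induce these genes, so in sorted cells they also register handling.

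Promoter sequence was available for 29 of the 34 genes in the RefSeq promoter table (GRCm38.p6). The 5 without an entry were Egr1, Egr3, Fosl1, Ier2 and Myc. The 250 bases before the first listed start of each gene were searched on both strands. For some genes, such as Nr4a1, Egr2 and Socs3, that start lay inside the gene's span, so the window was not upstream of the whole gene. The strings searched were the CArG box, the CRE TGACGTCA, the AP-1 site TGANTCA and the paired heat shock units GAANNTTC and TTCNNGAA. These are different letter strings, and no match overlapped another in these genes. GAANNTTC occurred in 4 of the 29 genes (Hspa1a, Hspa1b, Jun and Fosl2) and in 6.78% of 27025 promoters. The CRE occurred in 2 (Btg2 and Dusp1) and in 1.62% of promoters, and the CArG box in 1 (Zfp36) and in 1.40%. The AP-1 site occurred in 1 (Zfp36l1) and in 6.87%, and TTCNNGAA in 1 (Cyr61) and in 7.10%. Only exact matches within these 250 bases were counted, so sites further away or with other letters are not covered.

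Of these, 6 promoters are shown because they belong to the most abundant heat shock, AP-1 and feedback genes and hold a matched string. Each runs 5′ to 3′ on the gene's own strand, which is the minus strand for all 6, with the match in capitals. Hspa1a (chr17:34972157-34972406), Hspa1b (chr17:34959239-34959488) and Jun (chr4:95052223-95052472) hold GAANNTTC, at 104 to 97 bases before the start in the pair of heat shock genes and at 128 to 121 in Jun. Btg2 (chr1:134079156-134079405) and Dusp1 (chr17:26508473-26508722) hold the CRE, at 166 to 159 and at 143 to 136 bases before the start. Zfp36 (chr7:28379229-28379478) holds the CArG box at 58 to 49.
Hspa1a: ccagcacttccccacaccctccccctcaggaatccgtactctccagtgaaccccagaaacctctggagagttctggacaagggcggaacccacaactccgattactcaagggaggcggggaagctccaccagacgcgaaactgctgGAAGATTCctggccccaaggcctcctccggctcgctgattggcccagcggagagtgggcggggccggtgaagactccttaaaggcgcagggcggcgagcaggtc
Hspa1b: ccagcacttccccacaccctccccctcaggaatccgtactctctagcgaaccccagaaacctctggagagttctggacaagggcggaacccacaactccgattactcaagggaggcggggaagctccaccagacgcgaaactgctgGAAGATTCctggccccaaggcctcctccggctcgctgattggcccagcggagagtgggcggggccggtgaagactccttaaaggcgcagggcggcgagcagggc
Jun: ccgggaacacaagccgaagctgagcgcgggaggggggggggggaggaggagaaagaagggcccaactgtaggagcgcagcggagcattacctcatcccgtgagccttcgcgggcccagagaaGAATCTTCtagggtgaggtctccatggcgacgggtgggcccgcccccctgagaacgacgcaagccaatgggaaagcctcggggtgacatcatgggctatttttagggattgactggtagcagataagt
Btg2: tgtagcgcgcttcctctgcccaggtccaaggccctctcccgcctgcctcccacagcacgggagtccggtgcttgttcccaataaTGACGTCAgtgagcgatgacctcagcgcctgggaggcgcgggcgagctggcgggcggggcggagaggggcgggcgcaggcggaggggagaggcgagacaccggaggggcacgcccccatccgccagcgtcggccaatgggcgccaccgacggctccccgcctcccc
Dusp1: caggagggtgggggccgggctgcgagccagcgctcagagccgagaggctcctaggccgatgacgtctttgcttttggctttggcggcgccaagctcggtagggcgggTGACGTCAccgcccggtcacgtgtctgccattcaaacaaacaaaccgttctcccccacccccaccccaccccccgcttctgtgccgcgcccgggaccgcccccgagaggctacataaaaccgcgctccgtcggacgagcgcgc
Zfp36: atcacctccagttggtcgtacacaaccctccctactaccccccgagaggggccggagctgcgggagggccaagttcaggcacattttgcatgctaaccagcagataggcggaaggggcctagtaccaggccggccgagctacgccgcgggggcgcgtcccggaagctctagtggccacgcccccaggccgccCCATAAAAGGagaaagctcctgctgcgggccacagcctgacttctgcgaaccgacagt
The Hspa1a and Hspa1b windows were identical at 247 of 250 bases (98.8%). They differed at C44T, T47C and T249G, each written as the Hspa1a base, its position counted from 1 at the 5′ end of the window and the Hspa1b base. Their transcripts share sequence too: 52.7% of the 75-base windows of Hspa1a occur exactly in Hspa1b and 55.8% of those of Hspa1b in Hspa1a, so the split of reads between the pair is uncertain.

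Totals ran from 11516780 to 19171953 counts per library, and 17800 (KO cTEC) to 22708 genes had a count. Mcl1, the anti-apoptotic gene that the knockout targets, had 8.23 CPM in KO cTEC, against 228, 302, 259 and 241 CPM in WT cTEC libraries 1 to 4. In medulla it had 78.7 CPM in KO mTEC, against 113 and 203 CPM in WT mTEC libraries 1 and 2. Part of the Mcl1 signal thus remained in the KO mTEC library, where its log2 fold change of -1.01 ± 0.36 (SE) had an adjusted p of 0.538 in edgeR. The cortical marker Psmb11 was at 751 CPM in KO cTEC and 146 to 399 CPM in WT cTECs, against 26.5 CPM in KO mTEC and 10.1 to 12.8 CPM in WT mTECs. The medullary regulator Aire was at 0 in KO cTEC and 28.9 to 116 CPM in WT cTECs, against 457 CPM in KO mTEC and 338 to 554 CPM in WT mTECs. WT cTEC libraries thus held a medullary transcript that was at 0 in KO cTEC. These are bulk libraries, in which fewer cells of a type and less RNA per cell cannot be told apart.

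The 34 genes together held 1.54% of all counts in KO cTEC, against 0.714, 4.67, 3.51 and 3.95% in WT cTEC libraries 1 to 4. In medulla they held 0.940% in KO mTEC, against 0.823 and 0.408% in WT mTEC libraries 1 and 2. WT cTEC library 1 was thus below the KO cTEC library, and the other 3 WT cTEC libraries were above it.

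**Figure D1:**
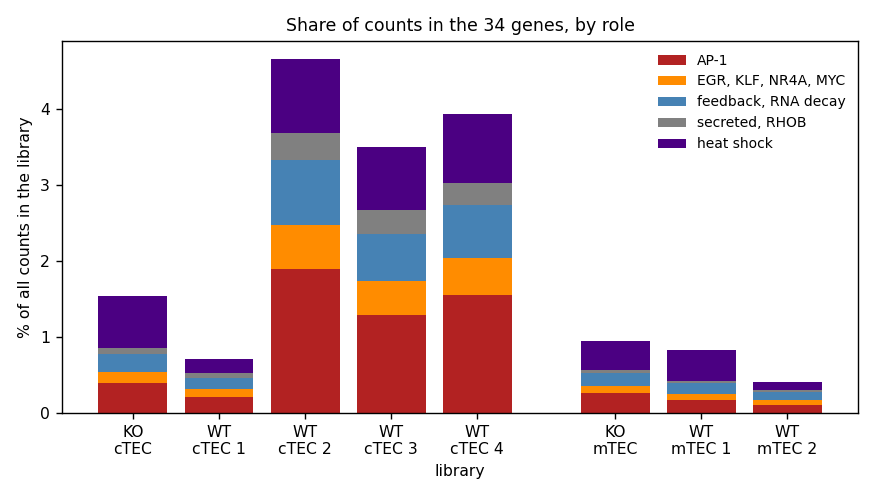
Share of all counts of each library (vertical axis, %) held by the 34 genes, stacked by role, in the 5 cTEC and 3 mTEC libraries (horizontal axis). WT cTEC libraries 2 to 4 reach 3.51 to 4.67%, while WT cTEC library 1 holds 0.714% and KO cTEC 1.54%.

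Among the 4 WT cTEC libraries alone, the genes were lowest in library 1 almost throughout. Library 1 had the lowest level for 31 of the 33 genes tested, while it was lowest for 28.8% of all 18163 genes tested. It lay at least 1 log2 unit, a factor of 2, under each of the other 3 libraries for 23 of 33 genes, and for 3.17% of all genes. The range of log2 CPM over the 4 libraries had a median of 2.55 over the 33 genes and 0.81 over all genes, and it was over 2 for 23 of 33 and for 17.1% of all genes. With library 1 left out, the median range was 0.46 for the 33 genes and 0.56 for all genes. At the upper end, library 2 was highest for 23 of 33, against 22.3% of all genes. Library 1 was highest for 1 of 33, against 32.2% of all genes, the largest such share of any WT cTEC library. It also stood apart beyond these genes. Chi-square per gene, leaving out genes with few counts, was 63.44 to 92.18 for pairs with library 1 and 26.22 to 47.15 for the other pairs.

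Among AP-1 subunits, all 9 were lowest in library 1 and the median range was 3.21. Fos, the defining AP-1 partner of JUN proteins (chromosome 12, 85473890 to 85477274, mm10), had 516, 6156, 4421 and 4921 CPM in WT cTEC libraries 1 to 4. Jun, which pairs with it (chromosome 4, 95049036 to 95052222), had 485, 6564, 4102 and 5233 CPM. Fosb, a FOS paralogue, had the largest range of all 33 genes, 4.09 on the log2 scale or 17.1-fold, with 26.5, 419.55, 303 and 454 CPM. In each of the 3, library 1 stood apart at the low end, and the other 3 libraries lay within a factor of 2 of each other. Fosl1, a FOS relative induced later than Fos, had 0.214, 2.14, 2.77 and 4.11 CPM, so its range of 3.64 rests on few counts. Fosl2, another FOS relative, had the smallest range, 0.66, with 26.3, 41.5, 30.9 and 27.4 CPM, and libraries 1 and 4 were close to each other.

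Per kilobase of the gene models in the files, Fos, Jun, Cyr61 and Junb were the 4 immediate-early genes with the highest average levels in WT cTECs, at 1913, 1285, 1219 and 1094 CPM per kilobase. The lowest tested levels on this scale belonged to Egr3, Fosl1 and Dusp2, at 0.900, 1.35 and 2.40 CPM per kilobase.

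Of the zinc finger, nuclear receptor and MYC regulators, 8 of 9 tested were lowest in library 1, with a median range of 2.91. Egr1, a zinc finger activator, had 426, 3276, 2602 and 2854 CPM, and Nr4a1, an orphan nuclear receptor induced by receptor signals, had 29.9, 265, 137 and 227 CPM. Library 1 was the low one for both genes. Myc, the growth regulator, varied little, with 62.6, 103, 100.3 and 104 CPM and a range of 0.74, yet library 1 was again the lowest. Egr3 was the exception, lowest in library 4, at 0.285, 2.80, 1.79 and 0.219 CPM.

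Feedback and RNA decay genes were lowest in library 1 in 9 of 10 cases. Btg2, an anti-proliferative partner of the mRNA deadenylation complex, was the most abundant of them on the CPM scale, at 231, 1946, 1427 and 1573 CPM. Dusp1, a phosphatase of MAP kinases, had 129.8, 1399, 1010.3 and 945 CPM, a range of 3.43. Socs3, an inhibitor of cytokine receptor signalling, had 82.04, 848, 524 and 625 CPM, a range of 3.37. For these 3 genes library 1 was far below the other libraries. Gadd45b, a stress sensor upstream of p38 and JNK kinases, had a range of only 0.67, with 73.1, 117, 93.8 and 107 CPM. Dusp2, a nuclear MAP kinase phosphatase, was lowest in library 3 and highest in library 1, at 4.99, 4.94, 2.44 and 3.18 CPM.

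Cyr61, a secreted matrix protein induced by serum and by YAP, had 583, 3409, 3057 and 2840.4 CPM in libraries 1 to 4. Rhob, an immediate-early small GTPase, had 52.6, 113, 133 and 103 CPM. Both were lowest in library 1. The 3 inducible heat shock genes were lowest in library 1 too. Hspa1b, an inducible HSP70 chaperone, had 941, 4067, 3663 and 3952 CPM, Hspa1a had 592, 3267, 2526 and 3201.5 CPM, and their co-chaperone Dnajb1 had 319, 2252, 2073 and 2004 CPM. The ranges of these 3 were 2.11, 2.46 and 2.82, so library 1 was apart for these inducible heat shock genes as well as for AP-1.

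**Figure D2:**
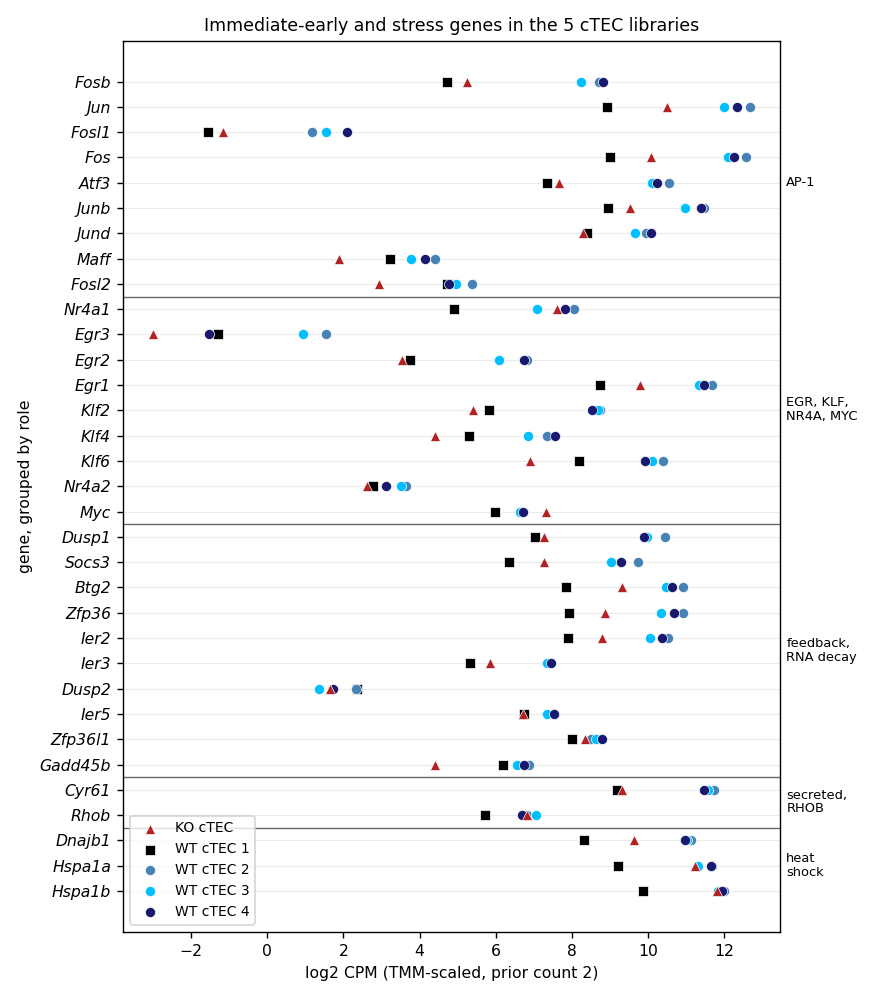
Level of each of the 33 tested genes (horizontal axis, log2 CPM with a prior count of 2) in KO cTEC and in WT cTEC libraries 1 to 4, grouped by role down the vertical axis and ordered by range among WT libraries. WT cTEC library 1 (square) is the lowest WT point for 31 of 33 genes, and KO cTEC (triangle) lies between it and the other 3 WT libraries for 18.

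Related lists showed less of this spread. Of 40 other immediate-early genes tested, 30 were lowest in library 1, 10 had a range over 2 and the median range was 1.28. Of 26 other heat shock and chaperone genes, 17 were lowest in library 1, 2 had a range over 2 and the median was 0.79. Of 26 upstream kinases and transcription factors, such as Srf and Creb1, 11 were lowest in library 1, none had a range over 2 and the median was 0.50, below that of all genes. Ptgs2, the inducible cyclooxygenase and itself an immediate-early gene, went the other way, with 234 CPM in library 1, against 23.7, 27.5 and 30.7 CPM in libraries 2 to 4. It was higher still in WT mTEC libraries 1 and 2, at 328 and 296 CPM.

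**Figure D3:**
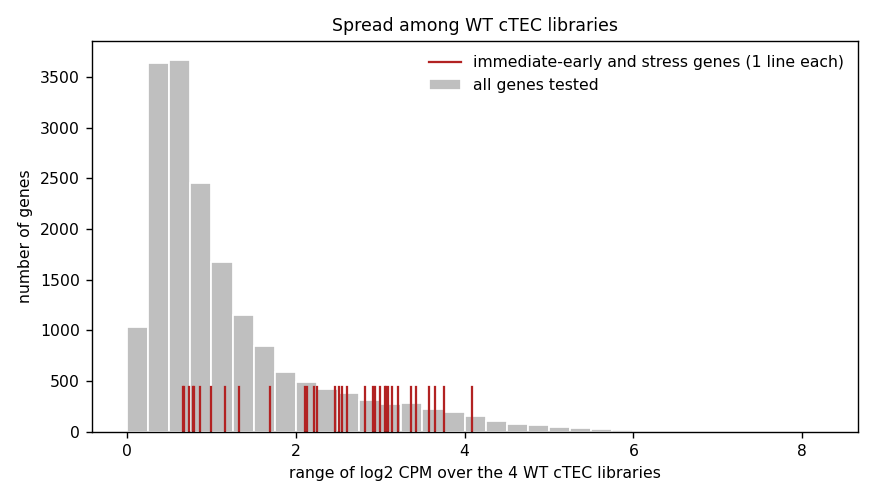
Number of genes (vertical axis) by the range of log2 CPM over the 4 WT cTEC libraries (horizontal axis) for all 18163 genes tested, with 1 red line for each of the 33 immediate-early and stress genes. The red lines run from 0.66 to 4.09 with a median of 2.55, and the median of all genes is 0.81.

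The total of library 1 was 13509642 counts, against 13300969 to 18338441 in libraries 2 to 4, and its share of mitochondrially encoded protein genes was 0.979%, against 0.922 to 1.42%, both inside the range of the others. The 100 highest genes held 20.4% of its counts, against 21.8 to 23.9%, outside that range. Cell type markers did differ in part. The summed cTEC markers were 8923 CPM in library 1, against 4177 to 7023 CPM in libraries 2 to 4, and 6 of 7 markers were highest there. The summed mTEC markers were 2992 CPM, against 3644 to 3971 CPM, with 3 of 8 lowest and 2 of 8 highest in library 1. Markers of dendritic cells and macrophages summed to 234 CPM in library 1 and 139 to 218 CPM in the others, and tuft cell markers to 965 CPM in library 1 and 798 to 1395 CPM in the others. Their part in the spread was not tested.

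Between KO and WT cTECs, 4 of the 33 genes were called, all lower in KO cTEC: Gadd45b, Fosl2, Maff and Klf6. Over all genes, 17.5% were called in this comparison, 12.4% lower and 5.1% higher, so the count among the 33 was near the background. Gadd45b (chromosome 10, 80930091 to 80932204) had 21.1 CPM in KO cTEC, against 73.1, 117, 93.8 and 107 CPM in WT cTECs, a log2 fold change of -2.21 ± 0.31 (SE, edgeR adjusted p = 0.00217). Fosl2 (chromosome 5, 32136472 to 32157840) had 7.46 CPM in KO cTEC, against 26.3, 41.5, 30.9 and 27.4 CPM in WT cTECs, a change of -2.08 ± 0.41 (edgeR adjusted p = 0.0108). Both genes were lower in KO cTEC than in every WT library, and they were also the genes with the smallest spread among WT libraries.

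Maff, a small MAF protein that dimerises on stress response elements (chromosome 15, 79346621 to 79359078), had 3.53 CPM in KO cTEC, against 9.27, 20.9, 13.5 and 17.4 CPM in WT cTECs. Its log2 fold change was -2.11 ± 0.54 (edgeR adjusted p = 0.0313). Klf6, a zinc finger factor induced by injury (chromosome 13, 5861489 to 5870393), had 119 CPM in KO cTEC, against 291, 1346, 1111 and 979.5 CPM in WT cTECs, a change of -2.97 ± 0.82 (edgeR adjusted p = 0.0421). KO cTEC was again below every WT library for both, including library 1. Under the other settings Gadd45b and Fosl2 stayed called. Without WT cTEC library 2 or 3, or either WT mTEC library, Maff was not called, at changes of -1.92 to -2.17 and adjusted p of 0.0524 to 0.0581. Klf6 was not called without any of these or WT cTEC library 4, at changes of -2.74 to -2.97 and adjusted p of 0.0632 to 0.0687. The highest adjusted p values were 0.0977 for Maff, with limma-voom, and 0.0747 for Klf6, with no filter on low counts.

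The other 29 genes were not called. For 21 of them the side on which KO cTEC lay depended on the WT library it was set against, while it was under all 4 for 7 and above all 4 for 1. KO cTEC lay above WT library 1 and under WT libraries 2 to 4 for 18 of 33 genes, a position taken by 4.85% of all genes. It lay under all 4 WT libraries for 11, against 32.9% of all genes, and above all 4 for 1, against 29.0%. It was above library 1 for 21 of 33, against 46.5% of all genes. The median log2 difference over the 33 genes was 0.40 between KO cTEC and WT library 1, and -2.07, -1.51 and -1.82 between KO cTEC and libraries 2 to 4. The medians over all genes for the same pairs were between -0.09 and -0.01.

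For the AP-1 genes Fos and Jun, KO cTEC had 1089 and 1442 CPM, against 516 and 485 CPM in WT library 1 and at least 4421 and 4102 CPM in libraries 2 to 4. Fosb had 38.1 CPM in KO cTEC, between 26.5 CPM in WT library 1 and 303 CPM in the nearest of the others. Their log2 fold changes over all 4 WT libraries were -1.88 ± 1.20 for Fos, -1.51 ± 1.16 for Jun and -2.98 ± 1.39 for Fosb, with edgeR adjusted p values of 0.319, 0.403 and 0.184. The SE of each was thus above 1 log2 unit. Egr1 had 881 CPM in KO cTEC, against 426 to 3276 CPM in WT cTECs. Egr3 had no count in KO cTEC, where 3 counts would be 0.193 CPM, and so was at least 6.61-fold lower than the WT cTEC mean of 1.27 CPM, or at least 3.97-fold lower than that without WT library 2. The 0.285 and 0.219 CPM of WT libraries 1 and 4 were near the 3-count limit. Its adjusted p was 0.125 in edgeR.

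Myc was the 1 gene above all 4 WT libraries, with 160.2 CPM in KO cTEC, against 62.6, 103, 100.3 and 104 CPM in WT cTECs. Its log2 fold change of 0.79 ± 0.28 had an edgeR adjusted p of 0.0859. Nr4a1 had 194 CPM in KO cTEC, against 29.9, 265, 137 and 227 CPM in WT cTECs, inside the WT range at a change of 0.24 ± 0.92.

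Among feedback and RNA decay genes, Btg2 had 634 CPM in KO cTEC, against 231 to 1946 CPM in WT cTECs. Dusp1 had 155 CPM and Socs3 153 CPM in KO cTEC, against 129.8 to 1399 CPM and 82.04 to 848 CPM in WT cTECs. The KO library was thus inside the WT range for all 3, close to WT library 1 for Dusp1. Cyr61, at 635 CPM in KO cTEC, was close to the 583 CPM of WT library 1 and below the 2840.4 to 3409 CPM of the others.

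The 3 heat shock genes, like Fos, Jun and Fosb, had a KO cTEC level above WT library 1 and under libraries 2 to 4, at unequal distances. Hspa1b had 3571 CPM in KO cTEC, against 941, 4067, 3663 and 3952 CPM in WT cTECs, and Hspa1a had 2403 CPM, against 592, 3267, 2526 and 3201.5 CPM. Both were just under WT libraries 2 to 4 and about 4 times WT library 1 (3.796-fold for Hspa1b and 4.06-fold for Hspa1a). Their log2 fold changes over all 4 WT libraries were 0.18 ± 0.84 for Hspa1b and 0.00 ± 0.87 for Hspa1a. Dnajb1, at 800.5 CPM in KO cTEC, stood between 319 CPM in WT library 1 and 2004 CPM or more in the others. Counts in the 3 heat shock genes per 100 counts in the 9 AP-1 genes were 176.9 in KO cTEC, against 89.9, 51.7, 64.6 and 58.5 in WT cTECs. The KO ratio was above every WT ratio. With a single KO library this ratio has no replicate check.

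Leaving out WT libraries changed the count of calls. Without WT cTEC library 1, 23 genes were called, 22 lower and Myc higher in KO cTEC, where 23.1% of all genes were called. Fos was then -2.25 ± 0.60 (edgeR adjusted p = 0.0303) and Jun was -1.88 ± 0.49 (edgeR adjusted p = 0.0284). Library 1 had been singled out as the lowest for 31 of these same 33 genes. Leaving it out thus raised their WT mean and narrowed their spread. Counts of calls without it, here and below, follow in part from that choice. Against WT cTEC library 1 alone, with the spread taken from the WT mTEC libraries, 10 of 31 genes were called, where 34.1% of all genes were called. Of these, Fosl2, Maff, Klf4, Klf6 and Gadd45b were lower and Myc, Zfp36, Ier2, Socs3 and Rhob were higher in KO cTEC. Zfp36, an mRNA decay factor, Ier2, an immediate early response gene, and Socs3 were called in opposite directions in these 2 settings. Gadd45b, Fosl2, Maff, Klf6 and Klf4 were called lower, and Myc higher, in both.

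**Figure D4:**
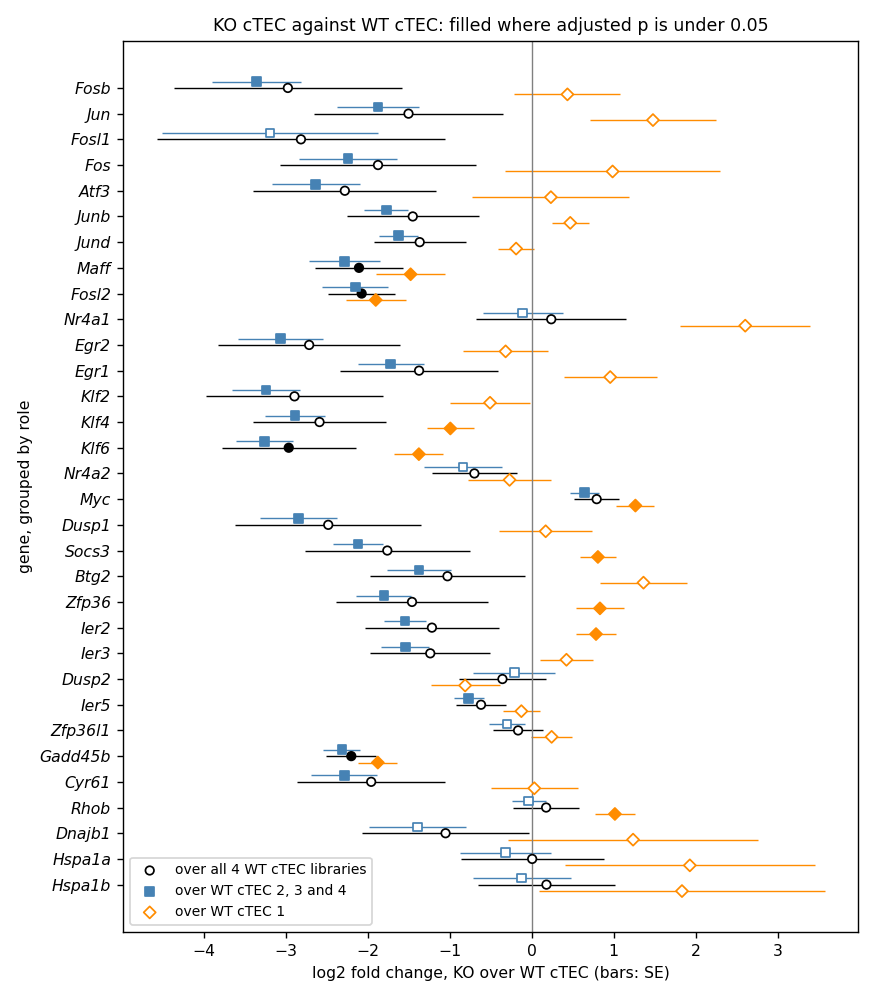
Log2 fold change of KO cTEC over WT cTEC (horizontal axis, bars are the SE of the edgeR fit) over all 4 WT libraries, over libraries 2 to 4 and over library 1, for 32 genes grouped by role, with filled symbols where the adjusted p is under 0.05. Egr3 is left out because it had no count in KO cTEC, and Fosl1 has no value over library 1. The values over library 1 lie right of those over libraries 2 to 4 for every gene but Dusp2, while Gadd45b, Fosl2, Maff and Klf6 are under 0 in all 3.

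Other cell types' markers also differed between KO and WT cTECs. The 5 tuft cell markers summed to 38.2 CPM in KO cTEC, against 798 to 1395 CPM in WT cTECs, all 5 were under every WT library, and Trpm5 and Gnat3 were at 0. The 7 markers of dendritic cells and macrophages summed to 10.9 CPM in KO cTEC, against 139 to 234 CPM, with 4 of 7 under every WT library. Of the 8 mTEC markers 6 were under every WT library. Erythroid markers went the other way, at 408 CPM in KO cTEC, against 16.1 to 70.4 CPM in WT cTECs, with 3 of 4 above every WT library. The mitochondrially encoded share was 0.534% in KO cTEC, against 0.922 to 1.42%. Their part in the lower Gadd45b, Fosl2, Maff and Klf6 was not tested.

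Of 40 other immediate-early genes tested, 12 were called lower and none higher in KO cTEC. Over all genes, 12.4% were called lower and 5.1% higher. Ptgs2 had no count in KO cTEC, against 23.7 to 234 CPM in WT cTECs, at least 409-fold below the WT mean, or at least 141-fold below the mean of WT libraries 2 to 4, since library 1 had the 234 CPM. Rgs1, a regulator of G-protein signalling, also had none, at least 12.7-fold below a WT mean of 2.44 CPM. Without WT library 2 this bound was 10.1-fold. WT libraries 1 to 4 had 3.85, 3.91, 1.63 and 0.384 CPM, the last near the 3-count limit of 0.193 CPM. Cxcl2, a neutrophil chemokine, had 0.386 CPM in KO cTEC, against 11.0 to 25.4 CPM in WT cTECs (-5.50 ± 0.71), and Dusp4, a phosphatase of MAP kinases, had 1.29 CPM, against 23.9 to 56.3 CPM (-5.03 ± 0.67). The edgeR adjusted p values of the 4 genes were 0.0363, 0.0488, 0.00156 and 0.0018. In WT mTEC libraries 1 and 2, Ptgs2 had 328 and 296 CPM, Rgs1 18.7 and 9.46 CPM, and Cxcl2 87.0 and 60.7 CPM. These were above every WT cTEC library, while Dusp4, at 52.0 and 40.8 CPM, was inside the WT cTEC range. The part of the lower mTEC and tuft cell markers of KO cTEC in these changes was not tested. Of 26 other heat shock and chaperone genes, 1 was called: Hspa4l, an HSP110 family chaperone, had 14.5 CPM in KO cTEC, against 90.6 to 97.4 CPM in WT cTECs. Of 26 upstream factors, Nfkb1 (1.28 ± 0.21) and Map2k1 (1.04 ± 0.22) were called higher, and Stat3 (-1.14 ± 0.21) and Elk3 (-0.97 ± 0.25) lower, in KO cTEC.

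Between KO and WT mTECs, none of the 33 genes was called by edgeR, and none of the 18163 genes (0.0%). At an unadjusted p under 0.05 there were 1502 genes, 1 of them among the 33 (Dusp2), and DESeq2 called 139 genes (none of the 33) and limma-voom none. Without WT cTEC library 1, which enters the estimate of the spread, 10 of the 33 were at an unadjusted edgeR p under 0.05. Over all genes, 2119 of 18079 were. None of the 33 was then called, and 0.0387% of all genes were. KO mTEC was above both WT mTEC libraries for 26 of 33 genes, against 38.6% of all genes, and under both for none, against 41.7%. Fos had 646 CPM in KO mTEC, against 359 and 113 CPM in WT mTEC libraries 1 and 2. Jun had 797 CPM in KO mTEC, against 378 and 162 CPM, and Fosb had 22.2 CPM, against 9.35 and 3.38 CPM. KO mTEC was the highest of the 3 libraries for each, and WT mTEC library 2 the lowest. Their log2 fold changes were 1.45 ± 1.11, 1.56 ± 1.09 and 1.81 ± 1.26, so none exceeded 2 standard errors with all libraries. All groups share 1 estimate of the spread, and without WT cTEC library 1 the same changes had SEs of 0.53, 0.45 and 0.48, with edgeR adjusted p values of 0.365, 0.281 and 0.262.

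The WT mTEC libraries themselves differed, with library 1 above library 2 for 29 of 33 genes, against 48.0% of all genes. The median log2 difference over the 33 genes was 0.32 between KO mTEC and WT mTEC library 1 and 0.93 between KO mTEC and library 2. Egr1 had 291 CPM in KO mTEC, against 219 and 105 CPM in WT mTECs, and Nr4a1 had 41.0 CPM, against 13.5 and 5.02 CPM. Dusp1 had 221 CPM in KO mTEC, against 191 and 91.3 CPM, and Socs3 had 50.5 CPM, against 34.6 and 33.1 CPM. Of the heat shock genes, Hspa1a had 1368 CPM in KO mTEC, against 1282 and 368 CPM in WT mTECs, and Dnajb1 had 624 CPM, against 457 and 129 CPM, in the same order. Hspa1b alone of the 3 did not have its highest level in KO mTEC, with 1898 CPM, against 2558 and 627 CPM in WT mTECs. Counts in the 3 heat shock genes per 100 AP-1 counts were 141.7 in KO mTEC, against 251.5 and 104.9 in WT mTECs, so the KO value was inside the WT range.

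The genes called lower in KO cTEC took no common position in medulla. Gadd45b had 222 CPM in KO mTEC, against 189 and 207 CPM in WT mTECs, and Klf6 had 403 CPM, against 482 and 313 CPM. Fosl2 had 33.0 CPM in KO mTEC, against 49.1 and 30.5 CPM, and Maff had 20.2 CPM, against 12.8 and 9.88 CPM. KO mTEC was inside the WT range for Klf6 and Fosl2 and above it for Gadd45b and Maff. Myc had 77.0 CPM in KO mTEC, against 54.0 and 62.3 CPM in WT mTECs. Btg2 (238 CPM in KO mTEC, against 262 and 130.3 CPM) and Cyr61 (349 CPM, against 263 and 129.98 CPM) differed from WT mTEC library 2 more than from library 1. Fosl1 stayed under 1 CPM, with 0.362 CPM in KO mTEC, against 0.770 and 0.159 CPM.

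**Figure D5:**
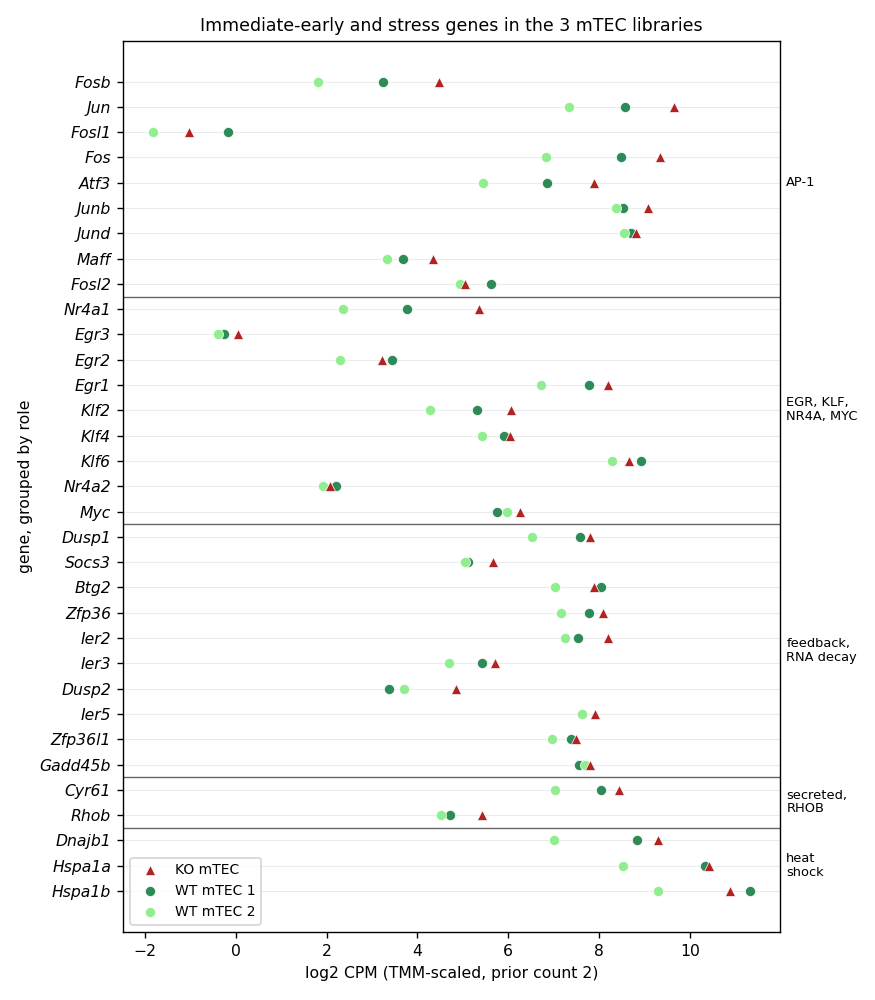
Level of each of the 33 tested genes (horizontal axis, log2 CPM with a prior count of 2) in KO mTEC and in WT mTEC libraries 1 and 2, grouped by role down the vertical axis in the order of the cTEC plot. KO mTEC (triangle) is above both WT libraries for 26 of 33 genes, and WT mTEC library 1 is above library 2 for 29.

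In medulla, markers of other cells also differed between the single KO library and the WT libraries. The 4 erythroid markers summed to 953 CPM in KO mTEC, against 29.7 to 63.8 CPM in WT mTECs, with 3 of 4 above both WT libraries, and the 5 fibroblast markers to 969 CPM, against 141 to 167 CPM, with all 5 above both. Markers of dendritic cells and macrophages summed to 629 CPM in KO mTEC, against 773 to 1038 CPM, with 5 of 7 under both. Thymocyte markers summed to 72.03 CPM in KO mTEC, against 48.7 to 49.0 CPM. The mitochondrially encoded share was 1.42% in KO mTEC, against 2.50 and 2.35% in WT mTECs. Their part in the higher AP-1 levels of KO mTEC was not tested.

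Between the WT populations, 19 of 33 genes were called, 17 lower and 2 higher in mTECs. Over all genes, 27.0% were called, 13.9% lower and 13.2% higher. Of the AP-1 genes 5 of 9 were called lower, of the zinc finger, nuclear receptor and MYC regulators 4 of 9, of the feedback and RNA decay genes 6 of 10, and both Cyr61 and Rhob were called lower, while none of the 3 heat shock genes was called. The median log2 fold change was -2.30 over the 33 genes and 0.06 over all genes. Both WT mTEC libraries were under all 4 WT cTEC libraries for 17 of 33 genes, against 24.7% of all genes, and above all 4 for 3, against 30.3%. Other measures differed with the population. The mitochondrially encoded share was 2.35 to 2.50% in WT mTECs, against 0.922 to 1.42% in WT cTECs. Fibroblast markers summed to 141 to 167 CPM in WT mTECs, against 700.1 to 897 CPM in WT cTECs, with 2 of 5 under every WT cTEC library and 1 above. Markers of dendritic cells and macrophages summed to 773 to 1038 CPM, against 139 to 234 CPM, with 5 of 7 above every WT cTEC library. Tuft cell markers summed to 497 to 541 CPM, against 798 to 1395 CPM, with 4 of 5 under. Their part in the lower levels in WT mTECs was not tested.

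Fosb had 9.35 and 3.38 CPM in WT mTECs, against 26.5 to 454 CPM in WT cTECs, the largest difference at -5.56 ± 1.19 (edgeR adjusted p = 0.0139). Fos had 359 and 113 CPM in WT mTECs, against 516 to 6156 CPM in WT cTECs (-4.08 ± 1.02, edgeR adjusted p = 0.0228). The groups did not overlap for either gene, although WT mTEC library 1 was nearer to WT cTEC library 1 for Fos than that library was to any other WT cTEC library. Rhob had 26.2 and 22.9 CPM in WT mTECs, against 52.6 to 133 CPM in WT cTECs (-2.03 ± 0.36, edgeR adjusted p = 0.00629). Gadd45b was higher in medulla, with 189 and 207 CPM in WT mTECs, against 73.1 to 117 CPM in WT cTECs (1.02 ± 0.19, edgeR adjusted p = 0.00843). Dusp2 was higher too, with 10.2 and 12.9 CPM in WT mTECs, against 2.44 to 4.99 CPM in WT cTECs (1.57 ± 0.38, edgeR adjusted p = 0.0185).

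The number of calls moved with single libraries. Without WT mTEC library 1 there was 1 call among the 33 (6.5% of all genes), and without WT mTEC library 2 none (3.42%), where 17 of the 33 were at an unadjusted p under 0.05. The median log2 fold change over the 33 genes was -2.70 without WT mTEC library 1 and -1.85 without WT mTEC library 2, against -2.30 with both. Without WT cTEC library 1 there were 27 calls (37.4%), and against WT cTEC library 1 alone 8 of 31 (32.3%). The median was -2.68 without WT cTEC library 1 and -0.48 against that library alone, where that of all genes was 0.07 and 0.04.

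Among 40 other immediate-early genes, 4 were called higher and 10 lower in WT mTECs. Dusp6, a cytosolic phosphatase of MAP kinases, had 22.9 and 15.5 CPM in WT mTECs, against 44.9 to 114 CPM in WT cTECs (-2.19 ± 0.40). Errfi1, an inhibitor of EGF receptor signalling (-2.16 ± 0.58), and Ctgf, a matrix protein related to Cyr61 (-2.08 ± 0.35), were lower, and Rgs1 was higher (2.53 ± 0.75). Of 26 other heat shock and chaperone genes 4 were called lower, namely Dnajb2 (-1.68 ± 0.26), Dnajb4 (-1.62 ± 0.41), Hspb8 (-1.14 ± 0.21) and Hsf1, the heat shock factor itself (-1.05 ± 0.25). Of 26 upstream factors 8 were lower and 1 higher. Egfr, the EGF receptor, had 36.3 and 26.9 CPM in WT mTECs, against 114 to 144 CPM in WT cTECs (-2.03 ± 0.20). Rps6ka1 (-1.76 ± 0.22), Elk1 (-1.38 ± 0.42) and Mapkapk2 (-0.96 ± 0.17), which carry MAP kinase signals to immediate-early promoters, were lower in WT mTECs as well.

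The KO effect in mTECs minus that in cTECs was called for 2 of the 33 genes, both higher, where 6.81% of all genes were called, 6.16% higher and 0.644% lower. Gadd45b had KO effects of 0.16 ± 0.28 in mTECs and -2.21 ± 0.31 in cTECs, a difference of 2.37 ± 0.40 (edgeR adjusted p = 0.00995). Maff had effects of 0.84 ± 0.49 in mTECs and -2.11 ± 0.54 in cTECs, a difference of 2.95 ± 0.72 (edgeR adjusted p = 0.0471). Fosl2 and Klf6, called in cTECs, had differences of 1.81 ± 0.54 and 2.99 ± 1.02 with edgeR adjusted p values of 0.0929 and 0.149, so a difference between populations was not shown for them. Across the 33 genes the median difference was 2.14, against 0.09 over all genes. The Mcl1 signal itself fell less in KO mTEC than in KO cTEC, and the part of this in the differences was not tested. Without WT cTEC library 1 there were 20 calls (10.2% of all genes), and with limma-voom none. The Maff call was lost when any of WT cTEC libraries 2 to 4 or either WT mTEC library was left out, at adjusted p of 0.0694 to 0.153.

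Beside these, 5 of 40 other immediate-early genes had a called difference, all higher. Cxcl2 (5.78 ± 0.82), Dusp4 (5.29 ± 0.79), Sgk1, a kinase induced by serum and glucocorticoid (2.79 ± 0.46), and Tnfaip3, a brake on NF-kB (2.02 ± 0.46), were the 4 with the largest. The other heat shock gene called was Hspa4l (2.70 ± 0.27), and the upstream factors called were Nfkb1 (-1.47 ± 0.34) and Stat3 (1.19 ± 0.29).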

How the data were processed

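Polyadenylated RNA was measured in 8 libraries, grouped by genotype and population as the labels give them. Per the labels' protocols, libraries were read as 75-base paired ends, and per the submitters' processing notes, the authors ran featureCounts on mm10 to count reads. The deposited values are raw counts for 27179 Entrez gene identifiers, with no normalization, beside a gene length, which is a deposited value of another kind in bases. The sources used here name no aligner, annotation or tool version. Another deposited table, of the whole series, has 8 columns that match no label and was not used. Symbols came from a RefSeq gene table (25275 identifiers matched).

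Genes reaching 1 CPM in 2 or more libraries were kept (18163). After TMM scaling, counts entered edgeR 4.0.16 in R 4.3.3 (robust quasi-likelihood F test) with 1 mean per group, which leaves 4 residual degrees of freedom. All tests were two-sided, p-values were adjusted by Benjamini-Hochberg over all genes tested, and a gene was called under 0.05. The fit was tested on simulated data with known changes. Each KO group is 1 library and takes its spread from the WT libraries, so it was assumed to vary like them. The SE of a change was obtained as its size divided by the square root of F. CPM values in the text are TMM-scaled, and log2 CPM used a prior count of 2. Read counts carry no molecular identifiers, so the limit of 3 counts set for a count of 0 covers counting error only. Alternatives were DESeq2 1.42.0, limma-voom 3.58.1, RLE size factors, no filter on low counts, libraries left out, and a block for the WT replicate numbers 1 and 2. Their deviations from the group means correlated at -0.146 and -0.019, so same-numbered libraries were not treated as pairs.

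The genes, the role classes and the other lists were chosen with earlier results of these data known. Per-library values are given for the most abundant gene of each role, the called genes of the KO comparisons, the 6 largest and 3 smallest ranges among WT cTECs and Mcl1. From the other lists, up to 4 called genes per comparison with the largest change are named. Further genes were named after their values were seen. No pair of libraries of a group held identical values.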

Additional observations from a re-analysis of the deposited data

Results flagged for a closer look

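Within WT cTECs, 13 of the 33 genes had library 1 so far below the other 3 that its gap to the nearest, divided by the range, passed the 95% critical value of Dixon's test for 4 samples. Over all genes tested, library 1 was set apart at the low end for 1.57% and any library at either end for 7.27%, and chance flags about 5% of groups. The ranges of log2 CPM were 4.09 for Fosb, 3.58 for Fos and 3.21 for Atf3 among AP-1 genes, 2.94 for Egr1, 2.91 for Klf2 and 0.74 for Myc among the zinc finger, nuclear receptor and MYC regulators, and 3.43 for Dusp1, 3.07 for Btg2 and 2.13 for Ier3 among feedback genes. They were 2.55 for Cyr61, 2.82 for Dnajb1, 2.46 for Hspa1a and 2.11 for Hspa1b. The genes of one library share their source, so these are not separate events.

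The KO effect was called different between populations for Gadd45b by 2.37 and for Maff by 2.95 (log2, mTEC minus cTEC). The test was of the difference itself in edgeR, at adjusted p of 0.00995 and 0.0471. The Maff call was lost when any of WT cTEC libraries 2 to 4 or either WT mTEC library was left out. With limma-voom neither gene was called, and each KO effect rests on a single KO library. Mcl1 was at 78.7 CPM in KO mTEC, against 113 and 203 CPM in WT mTECs. In KO cTEC it was at 8.23 CPM, against 228 to 302 CPM in WT cTECs, so the KO effects compare unequal losses of the Mcl1 signal.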

How the results depend on the processing

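The number of the 33 genes called between KO and WT cTECs was 4, and it was 9 with DESeq2, 2 with limma-voom, 2 to 23 with 1 WT library left out and 10 against WT cTEC library 1 alone. For WT mTECs against WT cTECs, 19 calls became 0 to 27 with 1 library left out and 8 against WT cTEC library 1 alone. With only the WT libraries numbered 1 and 2 in both populations there were 3 calls with a replicate block (12% of all genes). There were 5 without it (16.1%), and in this smaller fit a lost call follows in part from fewer libraries. For the difference of KO effects, 2 calls became 4 with DESeq2, 0 with limma-voom, 1 to 20 with 1 library left out and 6 against WT cTEC library 1 alone. The median range among WT cTECs was 2.55 and ran from 0.459 (without library 1) to 2.55 with 1 library left out. No gene called with all libraries changed direction under any of these alternatives, and RLE size factors moved none of these counts. KO against WT mTECs gave 0 calls among the 33 with DESeq2, limma-voom, RLE size factors, no filter on low counts or 1 WT library left out, and was not run against WT cTEC library 1 alone or in the block fit. The cause of these shifts was not tested. Depth was at least 11516780 counts per library, and each KO group was 1 library, a limit that depth does not remove. Counting is a further limit for Fosl1, Egr3 and Nr4a3, and for Dusp2 in cTECs, at a few CPM or less.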
